A study of Mus musculus with 21 samples.

Results

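Neurons made under the midbrain factor Lmx1a and neurons made under the motor neuron factor Olig2 were compared gene by gene. The comparison took all 6 arrays of these 2 groups out of 21 in the series, which holds 7 groups of 3, and covered all 18193 genes with a named probe set. Every difference is given as the dopaminergic group minus the motor neuron group, so a positive value is a higher signal in the dopaminergic neurons. RNA came from purified post-mitotic neurons grown from mouse embryonic stem cells and was read on Affymetrix Mouse 430 2.0 arrays.

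The dopaminergic group was the line NesE-Lmx1a, in which a nestin enhancer drives Lmx1a in neural progenitors, sampled at day 10 with sonic hedgehog (SHH) and FGF8; its labels call these dopamine neurons immature. The motor neuron group was the line NesE-Olig2, in which the same enhancer drives Olig2, sampled at day 8 with SHH and retinoic acid (RA). Both groups received SHH. The line, the driven factor, the second agent and the day therefore differ together and cannot be told apart in this comparison. Other groups served to set the difference in context: NesE-Lmx1a at day 14 with SHH and FGF8, the serotonergic line NesE-Nkx2.2, also sampled at day 10 after SHH plus FGF8 or SHH plus RA, and wild type cells at day 10 with FGF8 or at day 8 with RA. Titles of the wild type samples name SHH and their source names do not, while their descriptions place the cells in dorsal midbrain and dorsal hindbrain. The labels call the 3 samples of each group biological replicates, do not say whether a line is 1 clone, and do not say how the neurons were purified. No probe set is known here to read only the endogenous or only the driven copy of Lmx1a or Olig2.

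Midbrain dopaminergic neurons arise from the floor plate, the ventral midline that secretes SHH, where Lmx1a, Lmx1b, Foxa1, Foxa2 and Otx2 act before Nr4a2 and Pitx3 direct the dopaminergic phenotype. Somatic motor neurons arise from Olig2-positive progenitors of the hindbrain and spinal cord, take on Mnx1, Lhx3 and Isl1, and use acetylcholine. RA acts through nuclear receptors on response elements, posteriorizes neural tissue through the Hox clusters and induces the enzymes that degrade it, while midbrain tissue is free of Hox expression.

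RA response elements of the best known kind are direct repeats of a short receptor site with a spacer of 5 bases (DR5). Among the 15 RA genes tested, 11 had a promoter in RefSeq's table for GRCm38.p6, and the 2 whose window held such a repeat, Rarb and Cyp26a1, were among the largest differences of this comparison. They are printed here because their elements can be read directly. Capitals mark the repeat, and each run gives the 250 bases before the gene's start. Rarb, a retinoic acid receptor, lies on the minus strand with this stretch at chr14:16575477-16575726. Cyp26a1, an enzyme that clears RA, lies on the plus strand with its stretch at chr19:37697558-37697807.
Rarb: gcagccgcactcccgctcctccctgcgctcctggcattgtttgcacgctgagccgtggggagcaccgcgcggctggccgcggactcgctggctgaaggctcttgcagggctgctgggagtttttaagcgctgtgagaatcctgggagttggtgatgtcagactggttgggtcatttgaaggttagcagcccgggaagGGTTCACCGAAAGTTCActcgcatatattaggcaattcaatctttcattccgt
Cyp26a1: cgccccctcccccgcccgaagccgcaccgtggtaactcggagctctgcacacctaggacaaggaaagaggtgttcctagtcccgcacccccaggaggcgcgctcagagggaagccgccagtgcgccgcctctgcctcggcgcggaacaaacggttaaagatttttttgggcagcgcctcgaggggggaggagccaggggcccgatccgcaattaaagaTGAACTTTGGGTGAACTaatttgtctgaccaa
The repeat of Rarb spans bases 53 to 37 before its start and reads along the gene's strand. That of Cyp26a1 spans bases 32 to 16 before the start and reads on the opposite strand. The search allowed the site AGGTCA, the site AGTTCA, the site GGGTCA or the site GGTTCA in either place of the repeat, on both strands, in windows of 250 bases before to 50 after the start. Such a repeat was present for 31 of 27025 genes with a promoter (0.115%), for 11 of 14452 genes tested here (0.0761%), for 4 of 731 genes called lower here (0.547%), for 0 of 482 called higher and for 0 of 19 Hox genes. A match describes the letters of a window and is not a measured binding site.

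Across all genes, 625 were higher in the dopaminergic group (3.44% of those tested) and 939 lower (5.16%), in all 1564 (8.60%), at a limma adjusted p under 0.05 and at least 1 log2 unit, which is what "called" means below. On 605 of the higher and 930 of the lower genes the 3 arrays of one group did not overlap the 3 of the other, as was so for 27.9% of all genes. Median sizes of the called differences were 1.94 log2 units among the higher genes and 1.72 among the lower. At the upper end, 30 higher and 50 lower genes differed by 5 units or more. The motor neuron group was the lowest of all 7 groups on 313 of the 625 higher genes and the highest on 648 of the 939 lower ones, whereas the dopaminergic group was the highest on 218 and the lowest on 363. Errors given with ± are limma's standard errors, which pool each gene's variance across the 7 groups and can be wider or narrower than the spread of the 6 arrays compared, and 3 arrays a group limit the precision. In whole RNA from many cells, fewer cells of a type and less RNA per cell cannot be told apart.

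Some arrays stood apart. The spike-in control bioC alone divided the arrays into 2 sets, called batches A and B here, though the labels name no batch. The other hybridization controls overlapped between the 2 sets, so what divides them is unknown. Batch A held all dopaminergic arrays but only replicates 1 and 2 of the motor neuron group. Labelling controls lay at -3.83 to -3.68 on the dopaminergic arrays and 0.31 to 0.44 on the motor neuron arrays, so labelling and group cannot be told apart. Dopaminergic replicate 1 had low hybridization controls, at -2.46 against -0.17 and -0.19 in its replicates. Replicates were less alike in the dopaminergic group (r across genes 0.405 to 0.582) than in the motor neuron group (0.768 to 0.872). Replicate 3 of the dopaminergic group read 4.89 for Olig2, the factor of the other line, where its replicates read 0.58 and 0.91. Without replicate 1 of the dopaminergic group the called genes numbered 901 higher and 837 lower, and without replicate 3 529 and 930. Within batch A they numbered 363 and 817, and 123 of the 153 called genes named by rule kept their call there. That fit holds fewer arrays and fewer degrees of freedom, so a call lost there need not mean a smaller difference. Of 22 general neuron genes 2 were called higher and 0 lower, a share near that of all genes, from -1.71 to 3.16, with Tubb3, a neuronal tubulin, at 0.52 ± 0.22 (adjusted p = 0.138); within batch A 2 were higher and 1, Elavl2, lower. Pluripotent cell genes gave 0 calls among 14, with Nanog at 0.07.

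The 4 markers of both fates, the driven Lmx1a among them, separated the 6 arrays, while Olig2 and Isl1, given below, did not. Lmx1a, the driven midbrain factor, read 8.18, 8.06 and 8.33 on the dopaminergic arrays and -1.87, -1.85 and -1.86 on the motor neuron arrays, a difference of 10.05 ± 0.95 (adjusted p = 3.47e-06). Its groups lay far apart with almost no spread inside either. The Nkx2.2 line under RA read much the same as the motor neurons, at -1.95, -1.88 and -1.90. Whether these low values lie at the lower end of the signal scale was not tested. Their small spread may thus not measure how well replicates agree. Foxa2, a floor plate factor that the dopaminergic lineage keeps, read 2.00, 2.25 and 1.51 against -2.67, -2.65 and -3.02, a difference of 4.70 ± 0.51 (adjusted p = 1.52e-05). Mnx1, the homeobox factor of motor neurons, read 0.07, 0.00 and -0.04 in the dopaminergic group and 8.16, 7.76 and 8.03 in the motor neuron group, a difference of -7.97 ± 0.24 (adjusted p = 6.94e-12). Lhx3, its LIM homeobox partner, read 0.05, -0.02 and -0.04 against 7.96, 7.84 and 8.12, a difference of -7.98 ± 0.11 (adjusted p = 2.8e-16). All 4 markers thus followed the labels on every array, replicate 3 of the dopaminergic group included.

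**Figure D1:**
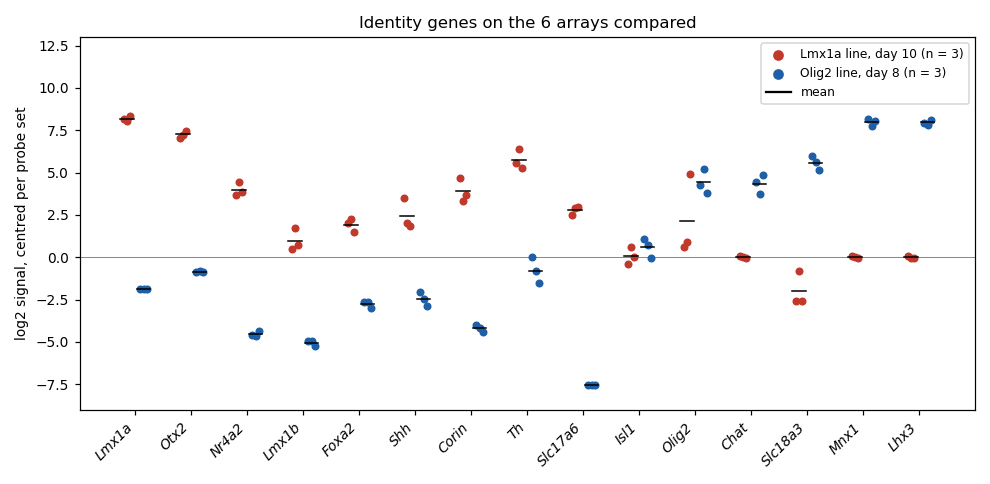
Log2 signal, centred per probe set (vertical axis), of 15 identity genes on the 3 dopaminergic arrays (Lmx1a line, day 10, red) and the 3 motor neuron arrays (Olig2 line, day 8, blue); dots are arrays and bars are means of 3. Genes from Lmx1a to Slc17a6 lie higher in red and Chat, Slc18a3, Mnx1 and Lhx3 higher in blue, while the Isl1 arrays overlap and 1 red Olig2 dot, at 4.89, lies among the blue ones.

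Midbrain transcription factors were higher as a group. Of 14 tested, 8 were higher and 1 was lower, with a median difference of 2.84 against 0.04 over all genes; within batch A the counts were 8 and 0. Otx2, which sets forebrain and midbrain identity, read 7.07, 7.25 and 7.48 in the dopaminergic group and -0.87, -0.84 and -0.86 in the motor neuron group, a difference of 8.13 ± 1.15 (adjusted p = 0.000171). No array of one group came near the other. Nr4a2, which drives dopaminergic maturation, read 3.66, 4.44 and 3.83 against -4.58, -4.64 and -4.34, a difference of 8.50 ± 0.77 (adjusted p = 2.31e-06), and 4 of its 6 probe sets were called. Lmx1b, the close relative of Lmx1a, read 0.48, 1.73 and 0.71 against -4.95, -4.94 and -5.24, a difference of 6.02 ± 0.49 (adjusted p = 6.4e-07). Its groups did not overlap, 1 of its 2 probe sets was called, and C130021I20Rik, a noncoding transcript beside Lmx1b, differed by 7.30 ± 0.37. Motor neurons were the lowest of the 7 groups on Lmx1b, and the Nkx2.2 line and wild type cells under FGF8 lay near the dopaminergic level. The Nkx2.2 line read 1.43, 2.06 and -0.60 for Lmx1b under FGF8 and 0.50, 0.93 and 1.27 under RA. Wild type cells under FGF8 read 0.75, 0.46 and 0.19. Foxa1 was higher by 5.01 ± 0.45, the midbrain factor En1 by 3.64 ± 0.41 and the neuronal differentiation factor Ebf3 by 2.03 ± 0.48. En2, the Engrailed relative of midbrain and isthmus, went the other way at -1.94 ± 0.38 (adjusted p = 0.0028; 0.118 within batch A). Pitx3, a later dopaminergic factor, stayed between 0.05 and 0.11 on the dopaminergic arrays and between 0.00 and 0.01 on the motor neuron arrays (difference 0.07, adjusted p = 0.923).

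Floor plate genes were mostly higher, 8 of 11, with 1 lower and a median of 2.61. Corin, a membrane protease that marks the floor plate, read 4.70, 3.31 and 3.70 in the dopaminergic group and -4.00, -4.20 and -4.41 in the motor neuron group, a difference of 8.11 ± 0.66 (adjusted p = 6.66e-07). Shh itself, the midline morphogen, read 3.49, 2.03 and 1.84 against -2.06, -2.47 and -2.87, a difference of 4.93 ± 0.75 (adjusted p = 0.000367). Neither gene overlapped between groups, and replicate 1 was the highest dopaminergic array on both. Neither was particular to the Lmx1a line. In the Nkx2.2 line Corin read 3.67, 1.68 and 1.90 under FGF8 and 2.19, 2.14 and 4.49 under RA. Shh read 0.98, 0.17 and 0.46 in that line under FGF8 and 1.11, 1.83 and 2.75 under RA. Ferd3l, a bHLH factor of the ventral midline, was higher by 4.08 ± 0.58, the netrin Ntn1 by 3.48 ± 1.06, the secreted Spon1 by 2.61 ± 0.60, Nkx6-1 by 2.33 ± 0.42 and Lmo3 by 1.29 ± 0.41. Single arrays decided some of these: the call of Ntn1 was lost without any of 5 arrays (adjusted p up to 0.161) and that of Lmo3 likewise (up to 0.209), and Spon1 was not called within batch A (adjusted p = 0.122). Slit2, the midline repellent, was lower at -1.70 ± 0.38. Wnt1 and Wnt5a were not called, at 0.08 and 0.45.

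Dopaminergic phenotype genes were mixed: 4 of 14 were higher, 1 was lower and the median was 0.21. Th, the enzyme that starts dopamine synthesis, read 5.55, 6.41 and 5.30 in the dopaminergic group and 0.01, -0.83 and -1.54 in the motor neuron group, a difference of 6.54 ± 1.03 (adjusted p = 0.000456). Ddc, which completes the synthesis, read 1.30, 1.20 and 0.00 against -2.97, -2.62 and -4.50 (4.20 ± 0.67, adjusted p = 0.000523). Both enzymes kept their calls without each of the 6 arrays in turn and within batch A. Slc18a2, which loads monoamines into vesicles, was higher by 1.91 ± 0.33 and the calcium buffer Calb1 by 4.31 ± 0.72. The dopamine transporter Slc6a3 read 0.13, 0.04 and -0.02 against -0.01, 0.01 and 0.01 (difference 0.05, adjusted p = 0.935), and at day 14 of the same line it stood 4.31 ± 0.33 above the same motor neuron arrays. Gch1, which makes the cofactor of Th, differed by 0.89 (adjusted p = 0.428), Aldh1a1 by 0.29 and the autoreceptor Drd2 by 0.46, all uncalled. Ret, the receptor for GDNF that both neuron classes use, was the member called lower, at -3.03 ± 0.37 (adjusted p = 4.52e-05).

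The largest higher difference of all was in a transmitter gene. Slc17a6, the vesicular glutamate transporter VGLUT2, read 2.51, 2.92 and 2.98 on the dopaminergic arrays and -7.56, -7.52 and -7.55 on the motor neuron arrays, a difference of 10.35 ± 0.82 (adjusted p = 5.65e-07), with both probe sets called. Motor neurons were the lowest of the 7 groups, and the group next to them, the Nkx2.2 line under RA, had a mean of -1.56. Of the 5 glutamate genes tested no other was called, with Slc17a7 at 0.07. Gad1, which makes GABA, read 0.00, -1.47 and 2.81 against -2.71, -2.49 and -1.83. Its difference of 2.79 ± 0.83 (adjusted p = 0.0351) was no longer called without replicate 3 of the dopaminergic group (1.61, adjusted p = 0.113). The call was also lost without any 1 of the motor neuron arrays (adjusted p up to 0.116). Within batch A the difference was 3.05, uncalled (adjusted p = 0.213).

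Other genes with the largest positive differences were Nrn1 (8.48 ± 0.73), a surface protein that promotes neurite growth, Cmtm8 (7.65 ± 0.73), Dmrta2 (7.63 ± 1.17), a dorsal telencephalic and midbrain transcription factor, Uncx (7.47 ± 0.58), a homeobox factor, the matrix protein Vtn (7.07 ± 0.69), C1ql1 (6.44 ± 0.55), a secreted synaptic protein, and the kinase Stk26 (6.43 ± 1.12). Each kept its call without every single array of the 2 groups. Uncx read 1.04, 3.54 and 3.77 against -4.78, -4.51 and -4.76, and Vtn 2.86, 1.35 and 1.09 against -5.65, -4.72 and -5.54. Motor neurons were again the lowest of all groups on Nrn1, Cmtm8, Uncx and Vtn.

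Lists of neighbouring populations gave mixed counts, set against shares over all genes of 3.44% higher and 5.16% lower. Lmx1a and Foxa factors are shared by neurons of the subthalamic and mammillary region, and 4 of 7 genes of that list were higher: Lmx1a, Lmx1b, Sim1 (4.24 ± 0.72) and Barhl1 (3.48 ± 0.75). Barhl1 read 1.20, 4.70 and 4.47 against -0.04, -0.02 and -0.02, so replicate 1 lay well below its own group, and within batch A the gene was not called (adjusted p = 0.174). Of 18 forebrain, midbrain and isthmus patterning genes 5 were higher and 5 lower, and within batch A 3 and 2. Six3, an anterior forebrain factor, read 2.92, 0.75 and 7.06 against -0.14, -0.60 and -0.51 (3.99 ± 1.01, adjusted p = 0.0143). Without replicate 3 it differed by 2.25, and within batch A by 3.95, uncalled (adjusted p = 0.241). Gbx2, which marks the hindbrain side of the isthmus and caudal neural tissue, read -1.25, -1.31 and -1.38 against 4.81, 4.97 and 5.05 (-6.26 ± 0.36, adjusted p = 1.74e-08), and Sp8 was lower at -5.69 ± 0.70. Of 14 ventral interneuron genes 4 were higher, En1, Sim1, Uncx and Gata3, 0 lower and 10 not called, with a median of 0.29. Of 15 dorsal and intermediate interneuron factors 2 were higher, Lhx5 (4.54 ± 0.54) and Barhl1, and 1 lower, Wt1.

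**Figure D2:**
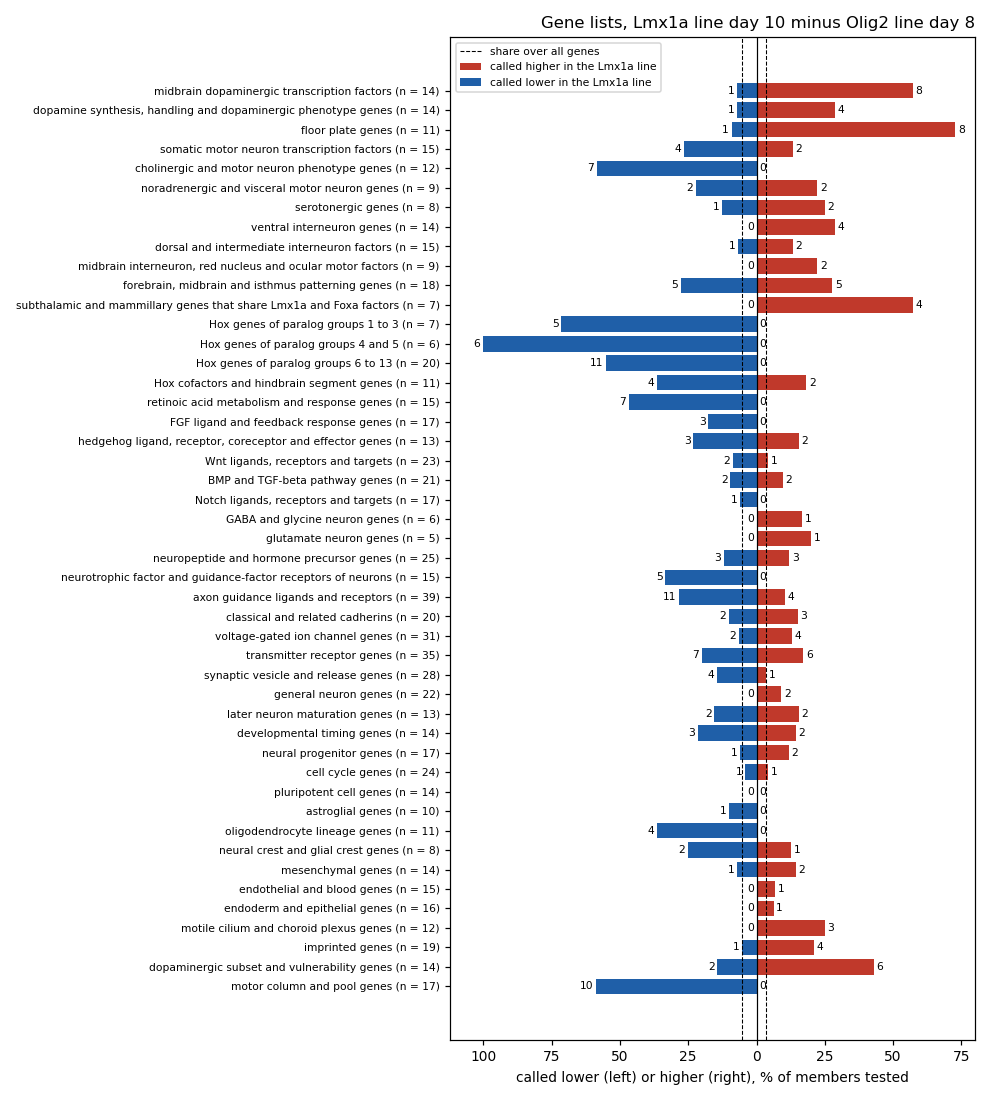
For each gene list, the members called higher (red, right) or lower (blue, left) in the Lmx1a line at day 10 than in the Olig2 line at day 8, as a percent of members tested; figures at the bars are numbers of genes, and dashed lines mark the shares over all genes, 3.44% higher and 5.16% lower. Hox, cholinergic and motor column lists extend to the left and floor plate and dopaminergic factor lists to the right.

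Motor neuron transcription factors divided. Of 15 tested, 4 were lower, 2 were higher and 9 were not called, with a median of -0.23. Next to Mnx1 and Lhx3, the lower genes were Lhx4 (-3.53 ± 0.69), which acts with Lhx3, and Olig1 (-2.32 ± 0.45), the neighbour of Olig2. Isl1, the LIM factor that specifies motor neurons, read -0.41, 0.62 and 0.01 in the dopaminergic group and 1.09, 0.75 and -0.03 in the motor neuron group. Its groups overlapped (difference -0.53 ± 0.41, adjusted p = 0.451). The other FGF8 groups of day 10 lay near the same level. Wild type cells read 0.00, -0.18 and 0.60 under FGF8, and the Nkx2.2 line -0.23, 1.26 and 0.67. Means of the RA groups of wild type and Nkx2.2 cells were -4.78 and -6.63. Isl2 differed by -1.02 (adjusted p = 0.142). Olig2 read 0.58, 0.91 and 4.89 against 4.27, 5.24 and 3.80, so the groups overlapped and the difference of -2.31 ± 0.80 was not called (adjusted p = 0.0714). Without replicate 3 of the dopaminergic group it was -3.69 (adjusted p = 5.71e-05). The higher members were Nkx6-1, a progenitor factor of the motor neuron domain and of the ventral midbrain, and Onecut1 (1.83 ± 0.55), whose call was lost without either of 2 arrays (adjusted p up to 0.165).

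Cholinergic and motor neuron phenotype genes were lower, 7 of 12, with 0 higher and a median of -2.05. Slc18a3, the vesicular acetylcholine transporter, read -2.58, -0.80 and -2.56 in the dopaminergic group and 5.99, 5.61 and 5.16 in the motor neuron group, a difference of -7.57 ± 0.70 (adjusted p = 3.07e-06). Chat, the enzyme that makes acetylcholine, read 0.08, 0.00 and -0.03 against 4.46, 3.71 and 4.84 (-4.32 ± 0.28, adjusted p = 5.43e-08). Prph, an intermediate filament of peripherally projecting neurons, read 0.00, 1.44 and -0.92 against 4.98, 5.25 and 5.26 (-4.99 ± 0.65), with 1 of its 4 probe sets called. These 3 genes separated the groups on every array. Ngfr, the low-affinity neurotrophin receptor, was lower at -2.25 ± 0.43, the guidance cue Slit3 at -1.86 ± 0.50 and the fast motor neuron marker Chodl at -2.47 ± 0.78. The call of Slit3 was lost without any of 3 arrays (adjusted p up to 0.0681) and that of Chodl without each of the 6 (up to 0.154). Slc5a7, which takes up choline, and the esterase Ache were not called, at -0.48 and 0.01.

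Genes of motor columns and pools were lower too, 10 of 17, with 0 higher and a median of -1.92; the number was 7 within batch A. Aldh1a2, an RA-making enzyme of limb-level motor neurons, read -1.41, -0.05 and -0.44 against 5.07, 4.75 and 3.59 (-5.11 ± 0.63, adjusted p = 4.63e-05). Hoxc6, of brachial levels, read -0.12, -0.21 and -0.23 against 6.17, 6.56 and 6.32 (-6.54 ± 0.51), and Hoxd9, of thoracic to lumbar levels, differed by -3.28 ± 0.25. Motor neuron arrays were higher without overlap on each of these. Trophic receptors were lower in 5 of 15 genes and higher in 0: Ret, Ngfr, the cytokine receptor subunit Il6st (-2.73 ± 0.63), the neuregulin receptor Erbb3 (-2.13 ± 0.41) and Lifr (-1.59 ± 0.24), a member named after its value was seen. Of 39 axon guidance genes 11 were lower and 4 higher. Epha4, the ephrin receptor that steers limb-innervating axons, read -1.74, 0.17 and -0.49 against 4.33, 3.99 and 3.85 (-4.75 ± 0.36, adjusted p = 3.94e-07), with all 5 probe sets called. The repellent Sema3a was lower at -2.41 ± 0.40, and the midline ephrin Efnb3 was higher by 3.85 ± 0.35.

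Hox genes gave the widest set of negative differences. Together, 22 of 33 tested were lower and 0 higher, from -1.38 to -10.63 with a median of -6.43, and the arrays of the groups did not overlap on any of the 22. By paralog group, 5 of 7 were lower in groups 1 to 3 (median -6.04), 6 of 6 in groups 4 and 5 (median -7.10) and 11 of 20 in groups 6 to 13 (median -2.06). Hoxa5 read -2.71, -2.30 and -2.87 in the dopaminergic group and 8.06, 8.12 and 7.83 in the motor neuron group, a difference of -10.63 ± 0.71 (adjusted p = 8.62e-08), the largest negative value of all genes. Hoxb5 read -0.19, -0.29 and -0.45 against 9.02, 9.27 and 9.05 (-9.42 ± 0.68, adjusted p = 2.04e-07). Motor neuron arrays agreed within 0.3 units on both genes. Among anterior members Hoxb2 read -6.85, -6.91 and -6.63 against 1.86, 2.21 and 2.01 (-8.82 ± 1.15), and Hoxb3 differed by -8.43 ± 1.08 and Hoxa2 by -6.32 ± 0.71. Further back, Hoxb6 differed by -8.96 ± 0.42, Hoxb9 by -8.19 ± 0.56, Hoxc8 by -7.12 ± 0.77 and Hoxa9 by -7.04 ± 0.64. The 11 uncalled genes lay between -0.93 and 0.06. Hoxb5os, a transcript antisense to Hoxb5, differed by -8.82 ± 0.56. Its reads and those of Hoxb5 come from overlapping genes. Of the 22 calls 21 remained within batch A and 21 without every single array.

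Hox cofactors were lower in 4 of 11 genes and higher in 2. Meis1, a TALE partner of Hox proteins, read -5.52, -4.38 and -4.33 against 0.96, 0.62 and 2.07 (-5.96 ± 0.81, adjusted p = 0.00012), and Meis2 differed by -5.80 ± 0.87, with all 4 probe sets called. Pknox1 was lower at -2.51 ± 0.24 and Pbx3 at -1.65 ± 0.45, the latter not within batch A (adjusted p = 0.0654) nor without any of 5 arrays (up to 0.0775).

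**Figure D3:**
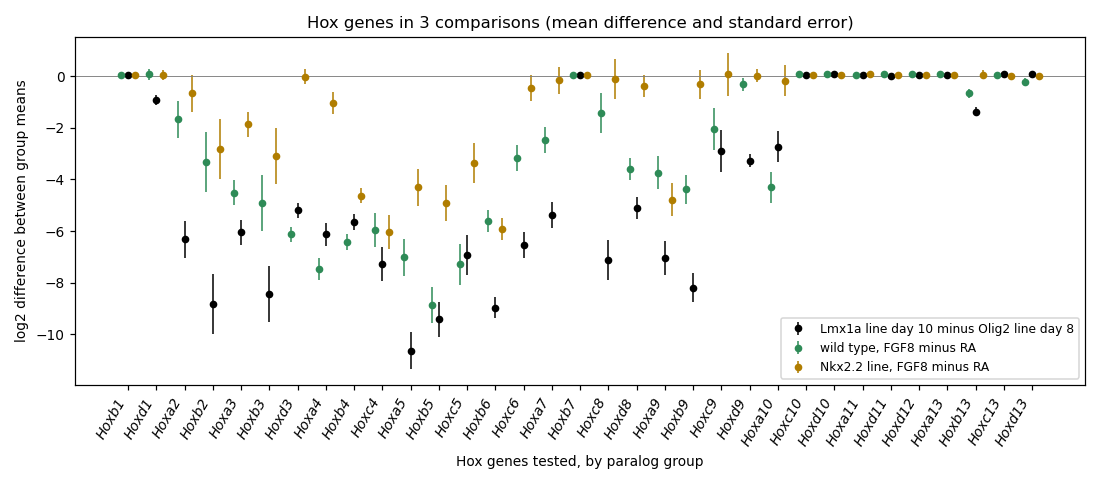
Log2 difference between group means (vertical axis; bars are standard errors, 3 arrays a group) of the 33 Hox genes tested, ordered by paralog group, for dopaminergic minus motor neuron arrays (black), wild type FGF8 minus RA (green) and Nkx2.2 line FGF8 minus RA (ochre). Black points reach -10.63 at Hoxa5, none lies above 0.06, and the 11 genes not called sit between -0.93 and 0.06.

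RA metabolism and response genes were lower in 7 of 15, higher in 0, with a median of -1.50. Cyp26b1, which degrades RA, read -0.29, -1.11 and -1.22 in the dopaminergic group and 8.33, 8.30 and 8.48 in the motor neuron group, a difference of -9.25 ± 0.43 (adjusted p = 1.51e-09). Cyp26a1, whose element is printed above, read 0.06, 0.02 and -0.01 against 8.20, 8.58 and 7.18 (-7.96 ± 0.25, adjusted p = 9.96e-12). Rarb, likewise printed, read -3.75, -3.35 and -3.05 against 5.84, 5.63 and 5.82 (-9.15 ± 0.74, adjusted p = 6.4e-07). On these 3 genes every motor neuron array lay over 7 units above every dopaminergic array. Dhrs3, which lowers retinal, differed by -4.84 ± 0.23, the retinol carrier receptor Stra6 by -3.66 ± 0.56 and the RA-binding Crabp1 by -2.17 ± 0.45; these 3 were named after their values were seen. The receptors Rara and Rarg were not called, at -1.07 and -0.68.

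Hedgehog and FGF genes were called too, with SHH given to both groups and FGF8 to the dopaminergic one only. Over all genes the shares called were 3.44% higher and 5.16% lower. Of 13 hedgehog pathway genes 2 were higher, Shh and Nkx6-1, and 3 lower. Gas1, a coreceptor that hedgehog signalling represses, read -0.99, 0.00 and -0.05 against 4.47, 4.10 and 4.10 (-4.57 ± 0.79, adjusted p = 0.00102), and the effector Gli2 differed by -4.36 ± 0.97 (adjusted p = 0.0686 within batch A). Nkx2-2, the third lower gene, read -2.63, -1.71 and -0.59 against 0.00, 0.20 and -0.29 (-1.61 ± 0.42, adjusted p = 0.018; 0.113 within batch A), and its call was also lost without any of 4 arrays (adjusted p up to 0.073). The targets Gli1 and Ptch1 were not called, at 0.27 and -0.45. Of 17 FGF genes 3 were lower and 0 higher, all feedback or effector genes: Spry4 (-3.20 ± 0.46), with 1 of its 4 probe sets called, Etv4 (-1.92 ± 0.33) and Spry2 (-1.25 ± 0.20).

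Genes outside the patterning lists stood among the largest negative differences. Mageb16, a MAGE family gene, read -5.31, -5.31 and -5.63 against 3.34, 3.28 and 3.29 (-8.72 ± 1.01, adjusted p = 2.72e-05). Trap1a, a tumour rejection antigen gene, read -4.05, -3.88 and -4.36 against 3.54, 3.35 and 3.59 (-7.59 ± 0.56, adjusted p = 2.62e-07). Their means were above 0 in all 3 RA groups, at 2.13 and 2.40 in wild type cells and 3.02 and 3.92 in the Nkx2.2 line, and below 0 in all 4 FGF8 groups. In the Nkx2.2 line under FGF8 that rested on replicate 3: Mageb16 read 0.38, 0.00 and -5.49 there and Trap1a 0.20, 0.00 and -2.33, so without that array neither mean lies below 0. The neuropeptide Grp read -0.64, -0.68 and -0.75 against 5.23, 6.31 and 7.23 (-6.94 ± 0.45, adjusted p = 6.91e-08).

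**Figure D4:**
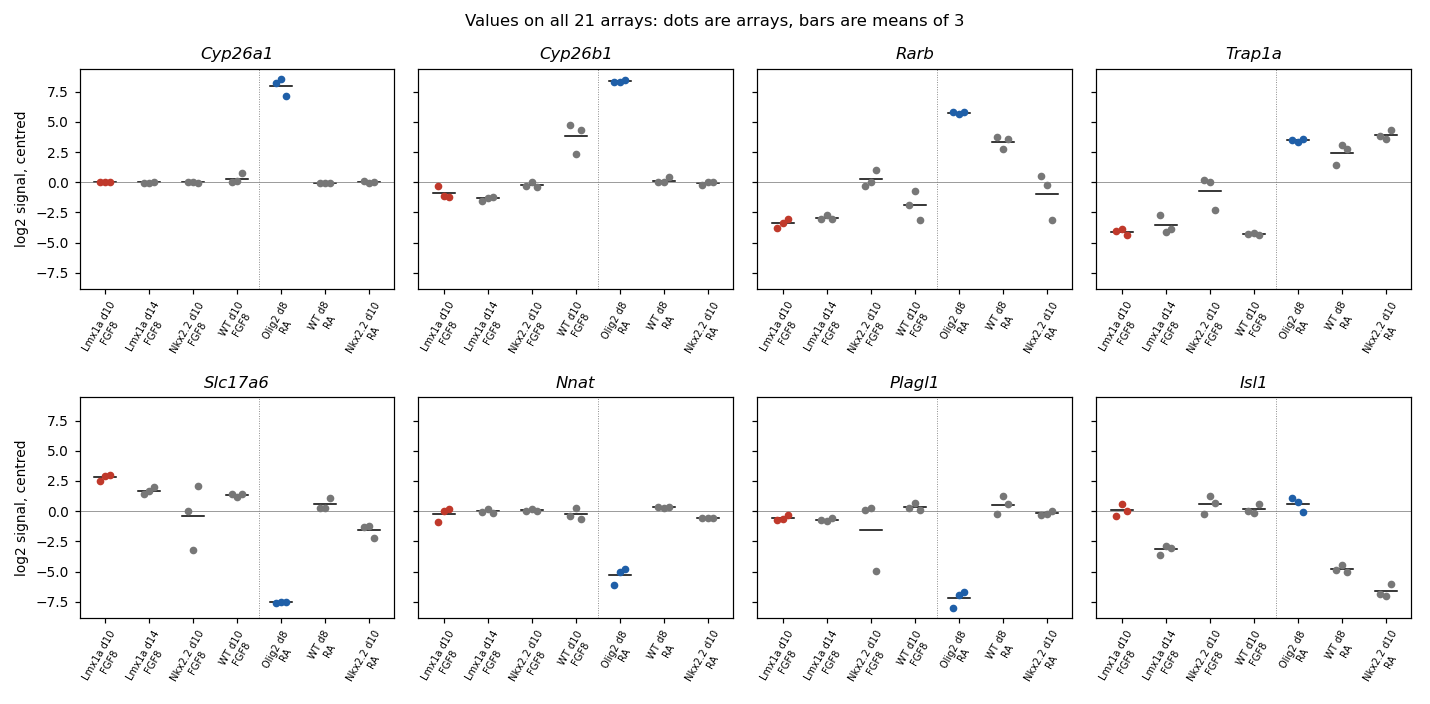
Log2 signal, centred per probe set (vertical axes), of 8 genes on all 21 arrays by group (horizontal axes); dots are arrays, bars are means of 3, red is the dopaminergic group, blue the motor neuron group, and the dotted line parts FGF8 groups (left) from RA groups (right). Cyp26a1 is high in the motor neuron group alone, Trap1a in all 3 RA groups, and Slc17a6, Nnat and Plagl1 are lowest in the motor neuron group.

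Wild type cells and the Nkx2.2 line give 2 further FGF8 minus RA differences that share no array with this comparison. They show how far the same genes differed where the line did not. Batch was uneven between the groups. Wild type FGF8 replicates 1 and 2 lay in batch A, and all other wild type and Nkx2.2 arrays in batch B. In the wild type, batch and agent therefore cannot be fully told apart. With a block for the batch its calls moved from 566 higher and 780 lower to 298 and 519. Wild type cultures, which differ by the same days, had 1346 genes called (7.40% of those tested, 3.11% higher and 4.29% lower), and the Nkx2.2 line, both arms at day 10, had 785 (4.31%, 1.65% higher and 2.66% lower). Of the 625 genes higher in the dopaminergic group 60 were called higher in the wild type (9.60% of the 625 and 10.6% of the wild type's higher genes) and 64 were called lower. Of the 939 lower genes 193 were also lower in the wild type (20.6% and 24.7%) and 37 were higher. In the Nkx2.2 line the same direction was called for 51 of the higher genes, with 66 opposite, and for 80 of the lower genes, with 37 opposite. Hox genes were the clearest shared group: 16 of the 22 lower Hox genes were lower in the wild type and 8 in the Nkx2.2 line.

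Interaction terms tested whether the differences departed from one another. Against the wild type the interaction was called for 2078 genes (11.4% of those tested, 4.96% higher and 6.46% lower), and against the Nkx2.2 line for 1637 (9.00%, 3.97% higher and 5.03% lower). Both interactions hold the same dopaminergic minus motor neuron difference, so their calls are not independent of it or of each other. Both were called higher for Lmx1a, Nr4a2, Slc17a6, Corin, Foxa2, Foxa1 and Shh, and both lower for Mnx1, Lhx3, Chat, Slc18a3, Cyp26a1 and Cyp26b1. A called interaction does not make a gene particular to the Lmx1a line. On Corin, Foxa2 and Shh every Nkx2.2 array lay above every motor neuron array, under FGF8 and under RA. Foxa2 read 0.08, 0.62 and 1.95 in that line under RA. Cyp26b1 was lower by 9.25 in the line comparison but higher by 3.66 in the wild type, and the interaction of -12.91 ± 0.61 was the most negative one. Cyp26a1 differed by 0.32 in the wild type and -0.02 in the Nkx2.2 line. Some genes gave no called interaction in either setting. For Otx2 the values were 5.42 in the wild type and 4.22 in the Nkx2.2 line (interaction adjusted p = 0.348 and 0.157), and for Th they were 3.02 and 2.89 (0.13 and 0.135). The FGF8 arrays behind these values disagreed. In the Nkx2.2 line they read 4.95, 0.00 and 6.33 for Otx2 and 2.38, -1.55 and 3.43 for Th. In the wild type they read 5.51, 2.52 and 5.52 for Otx2 and 0.90, 3.90 and 0.86 for Th. For Hoxb5 the wild type differed by -8.86 (interaction adjusted p = 0.913) and the Nkx2.2 line by -4.91 (0.00596), and for Hoxa5 by -7.02 (0.0256) and -4.30 (0.000789). A p above the threshold does not show that the differences were equal.

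**Figure D5:**
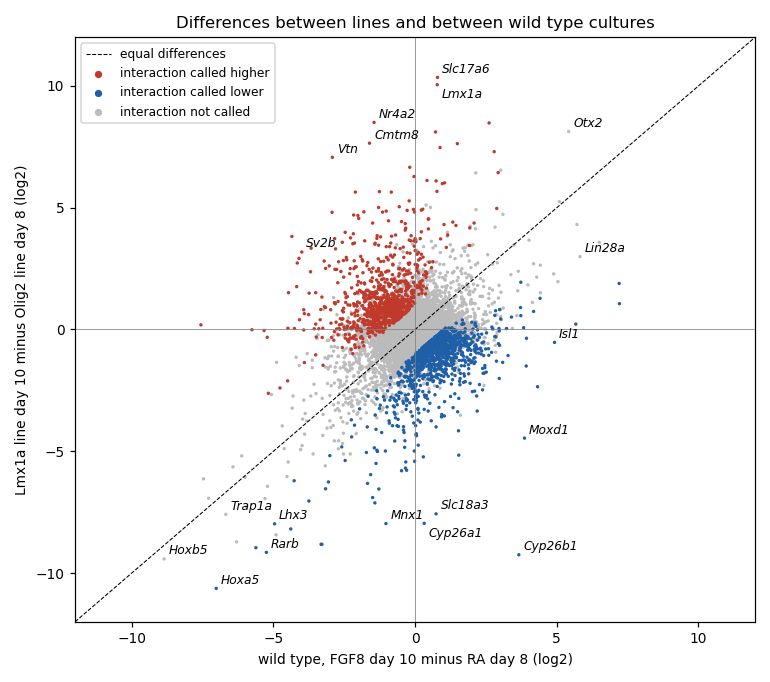
Log2 difference of the Lmx1a line at day 10 minus the Olig2 line at day 8 (vertical axis) against wild type FGF8 day 10 minus RA day 8 (horizontal axis), 1 dot per gene for 18193 genes; red and blue mark interactions called higher (902) and lower (1176), grey the rest, and the dashed line equal differences. Hoxb5 lies near the dashed line, Otx2 lies above it although its interaction was not called, and Slc17a6, Lmx1a and Cyp26b1 lie far from it.

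The older neurons of the Lmx1a line were set against the same motor neuron arrays, so the values are given side by side only. At day 14, 2007 genes were called (11.0% of those tested, 5.88% higher and 5.15% lower). Lmx1a stood at 10.94 ± 0.95 there and at 10.05 at day 10, Nr4a2 at 9.13 ± 0.77 and 8.50, Corin at 9.26 ± 0.66 and 8.11, Th at 5.14 ± 1.03 and 6.54, and Hoxa5 at -10.87 ± 0.71 and -10.63. Isl1 stood at -3.78 ± 0.41 at day 14 (adjusted p = 8.18e-06) and at -0.53 at day 10. Pitx3 stood at 0.88 ± 0.42 (adjusted p = 0.198), uncalled at both times.

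Marker lists of other cells differed in how many genes were called. Beside these counts stand the shares over all genes, 3.44% higher and 5.16% lower, and some counts lie near them. Of 24 cell cycle genes 1 was higher, Ccnd1 (3.44 ± 0.95), and 1 lower, Ccne1 (-2.78 ± 0.47), with Mki67 at 0.37; the list's mean level ran from 0.45 to 1.04 on the dopaminergic arrays and from -0.29 to 0.61 on the motor neuron arrays. Of 17 neural progenitor genes Nes (2.31 ± 0.57) and Msi1 (2.42 ± 0.77) were higher and Sox9 lower (-2.41 ± 0.36), with Sox2 at 0.54 and mean levels of -0.17 to 0.71 and -0.39 to 0.08. Msi1 read 0.00, 3.45 and 3.14 against -0.24, -0.21 and -0.22, so replicates 2 and 3 alone were high. Within batch A the calls of Ccnd1, Nes and Msi1 were lost (adjusted p = 0.171, 0.0822 and 0.222), as was that of Ccnd1 without any of 4 arrays and that of Msi1 without any of 5 (up to 0.0837 and 0.198). Of 11 oligodendrocyte lineage genes 4 were lower, Pdgfra (-3.79 ± 0.79), Cnp (-2.25 ± 0.26), Olig1 and Nkx2-2, with mean levels of -0.57 to 0.09 and 0.72 to 1.13. Of 8 neural crest genes 1 was higher, Twist1 (2.86 ± 0.77), and 2 lower, Ets1 (-2.84 ± 0.87) and Erbb3, with mean levels of -0.11 to 0.24 and 0.14 to 0.70. Of 14 mesenchymal genes 2 were higher, Twist1 and Postn (2.57 ± 0.72), and 1 lower, Col6a1 (-3.25 ± 0.58), with mean levels of -0.91 to 0.79 and -0.47 to 0.14. The call of Twist1 was lost without any of 3 arrays (adjusted p up to 0.0747), and those of Ets1 and Postn without any of 4 (up to 0.138 and 0.0931). Astroglial genes gave 1 lower call among 10 and 0 higher, with Gfap at 0.00. The gene called, Aldoc, stood at 0.07 with probe sets without a name suffix. How much such cells contribute to the differences was not tested.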

How the data were processed

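The authors deposited log2 signals from Affymetrix Mouse 430 2.0 arrays, made from total RNA of purified post-mitotic neurons and processed with GCRMA per the submitters' processing notes; the GCRMA version was not stated there. The deposited log2 values are further centred: at most 13 of each probe set's values lie above 0 and at most 13 below, as a median over 27 arrays gives, of which 21 are used here. Differences between groups survive centring, levels do not, and a signal's distance from background is unknown, so differences against a very low group depend on GCRMA's lower end.

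Of 45101 probe sets 64 controls were left out, 34945 had 1 gene symbol, 932 several and 9160 none. For each of 18193 genes the probe set of widest SD across these 21 arrays was used, and genes were not filtered. All 7 groups were fitted with limma 3.58.1 in R 4.3.3 (lmFit, contrasts.fit, eBayes; 14 residual and 1.11 prior degrees of freedom), with Benjamini-Hochberg adjustment over all genes of a comparison. On simulated data for this comparison over 18193 genes the fit recovered 46.7%, 67.9%, 87.0% and 99.0% of set changes of 1.5, 2, 3 and 5 log2 units over 20 runs of 200 changed genes, and 2.53% of calls were false. Single runs, with 50 genes of each size, ranged from 34% to 58%, 42% to 78%, 76% to 100% and 94% to 100%. The simulation drew independent normal noise with 1 SD per gene for all groups, without batch or outlying arrays. Changes were set only in genes of above-median SD. Real arrays had a median SD of 0.21 in the dopaminergic and 0.11 in the motor neuron group. The simulated shares may therefore not carry over to the real arrays.

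The members, gene lists, comparisons and tests were chosen with earlier results of these data known. Named by rule are the 4 markers with Olig2 and Nkx2-2, the 15 called genes with the largest rise and fall and no overlap, called members of the lists on neuron identity, up to 4 called members of each other list, and the 5 largest interactions each way; some are given in counts only, and uncalled identity genes may be named. A few other genes, and those that show where a list or an array stands, were named after their values were seen. Of 729 list genes 675 were tested. Batches A and B were inferred from bioC signals, since the labels name none. Alternatives covered probe set choice, scaling, moderation, thresholds, batch, a replicate block (statmod 1.5.0 serves the robust moderation) and leaving out each array. Promoters come from RefSeq (GRCm38.p6), matched by symbol for 14452 of the genes tested.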

Additional observations from a re-analysis of the deposited data

Results flagged for a closer look

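The difference between dopaminergic and motor neurons departed from the FGF8 minus RA difference in cells where the line was held constant, by limma's interaction test with Benjamini-Hochberg adjustment. Against wild type cells 902 genes had a higher and 1176 a lower interaction. The most positive were Vtn at 9.99, Nr4a2 at 9.95, Slc17a6 at 9.56, Lmx1a at 9.27 and Cmtm8 at 9.26 log2 units. Most negative were Cyp26b1 at -12.91, Moxd1 at -8.33, Slc18a3 at -8.31, Cyp26a1 at -8.29 and Mnx1 at -6.94. Moxd1, a monooxygenase relative, reversed between settings: it differed by -4.46 in the line comparison and by 3.86 in the wild type.

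Against the Nkx2.2 line 722 genes had a higher and 915 a lower interaction. Kitl, the ligand of the receptor Kit, stood at 9.39, Slc17a6 at 9.16, Vtn at 9.11, Ppfibp2 at 9.11 and Cmtm8 at 8.85. At the lower end stood Slc18a3 at -10.62, Rarb at -10.32, Cyp26b1 at -9.11, Lhx3 at -8.00 and Mnx1 at -7.99. Kitl was higher by 5.64 in the line comparison, with all 4 probe sets called, and differed by -3.75 in the Nkx2.2 line.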

How the results depend on the processing

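Counts are given as higher, then lower. For dopaminergic minus motor neurons (625, 939) most alternatives gave counts within 1.5 times. Others gave 1412 higher with array weights, 345 higher at an adjusted p under 0.01, 363 higher within batch A, 291 and 378 at 2 log2 units or more, and 1433 lower with every probe set singly. Leaving out 1 array gave 451 to 901 and 782 to 955, 343 and 619 genes kept their call each time, and without dopaminergic replicate 1 the share of higher calls moved from 40.0% to 51.8%. The interaction with the wild type gave 2148 and 2251 with weights, 448 and 589 at the stricter p, 486 and 458 at 2 units, 1782 lower with single probe sets, and 660 to 1320 and 834 to 1452 without 1 array. For the interaction with the Nkx2.2 line these were 1749 and 1503, 423 and 520, 476 and 411, 1098 and 1476 with single probe sets, and 571 to 801 and 706 to 988. For wild type FGF8 minus RA they were 1379 and 1284, 219 and 405, 170 and 312, with 291 higher for the mean of probe sets, 298 and 519 with a block for the batch, and 260 to 869 and 497 to 762 without 1 array. For the Nkx2.2 line they were 715 and 1136, 138 and 267, 84 and 247, with 193 and 266 after quantile normalization and 189 to 407 and 329 to 482 without 1 array. Day 14 minus motor neurons gave 523 and 400 at 2 units, 1452 lower with single probe sets, and 899 to 1016 and 754 to 932 without 1 array. The cause of these shifts was not tested, beyond stricter thresholds and more features giving other counts by construction.

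Replicate numbers showed no pairing over the series. Deviations from group means correlated at a mean of 0.00603 over 63 same-number pairs of arrays and -0.00337 over 126 other pairs. Between dopaminergic and motor neuron arrays of the same number the correlations were 0.0716, 0.129 and 0.123, which do not settle pairing there. With the replicate block 635 genes were higher and 942 lower. Of 153 named calls 153 held with trend and robust moderation, 151 with centred arrays, 148 with quantile normalization, 144 with the batch as a block, 128 with only the 6 arrays compared and 123 within batch A. Aldoc, an astroglial enzyme, and Nfix changed sign with probe sets without a name suffix, from -2.31 to 0.07 and from -2.11 to 0.17. Interactions could not be fitted within batch A, which held no RA array of wild type or Nkx2.2 cells. Leaving out arrays of the other groups, and the list counts without single arrays, were chosen after seeing the data.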

Other observations

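Receptor and channel genes differed in both directions, and most members were not called. Over all genes the shares called were 3.44% higher and 5.16% lower, and some counts below lie near them. Of 35 transmitter receptor genes 6 were higher in the dopaminergic group, 7 lower and 22 not called. Gria3, an AMPA receptor subunit, read 1.43, 1.10 and 0.65 on the dopaminergic arrays and -3.47, -3.99 and -2.27 on the motor neuron arrays (4.31 ± 0.33, adjusted p = 3.94e-07), and the NMDA receptor subunit Grin3a was higher by 3.88 ± 0.66. Glra1, the glycine receptor subunit of spinal neurons, was lower at -2.50 ± 0.42. Of 31 voltage-gated channel genes 4 were higher, led by Cacna2d1 (4.97 ± 0.47), a calcium channel subunit, and 2 were lower, Scn1a (-3.62 ± 0.54) and Kcnd2 (-3.35 ± 0.71). Of 28 synaptic vesicle and release genes 1 was higher, Sv2b (3.18 ± 0.50), and 4 lower, among them Nrxn3 (-2.60 ± 0.41) and Syn2 (-2.83 ± 0.53; 1 of 6 probe sets called). Calb2, a calcium buffer, was higher by 4.73 ± 0.70 and the granin Chgb by 3.16 ± 0.21. Of 20 cadherin genes Pcdh11x (4.14 ± 0.59) and Pcdh17 (2.80 ± 0.47) were among 3 higher, and Cdh13 (-3.30 ± 0.50) and Pcdh7 (-2.64 ± 0.57) were lower.

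Imprinted genes were higher in 4 of 19 and lower in 1, with 14 not called and a median of -0.05. Plagl1, a zinc finger factor of the imprinted network, read -0.73, -0.67 and -0.29 on the dopaminergic arrays and -8.03, -6.95 and -6.69 on the motor neuron arrays (6.66 ± 0.94, adjusted p = 0.000171), with 1 of 3 probe sets called. Nnat, a membrane proteolipid of neurons, read -0.90, 0.04 and 0.15 against -6.07, -5.02 and -4.76 (5.04 ± 0.31, adjusted p = 4.17e-08). Motor neuron arrays were the lowest of all groups on both. Of the other 5 groups, Nnat had means between -0.58 and 0.32 and Plagl1 between -1.55 and 0.52. The lowest of the Plagl1 means, in the Nkx2.2 line under FGF8, rested on replicate 3 (0.07, 0.25 and -4.97), and without that array the lowest was -0.72. Of 12 motile cilium genes 3 were higher, Folr1 (3.62 ± 0.75), Foxj1 (2.39 ± 0.59; not called without either of 2 arrays, adjusted p up to 0.0545) and Dnah9 (2.00 ± 0.49), and 0 lower. Lin28a, a developmental timing gene, read 2.63, 4.46 and 3.82 against 0.81, 1.43 and -0.30 (2.99 ± 0.83, adjusted p = 0.0252), a call lost without any of 4 arrays (adjusted p up to 0.107).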
